A study of Mus musculus with 48 samples.

Results

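Mgat4a, Cds2 and Ppp1r15b were examined for adenosine-to-inosine editing of their transcripts in 8 tissues of mice with and without the editing activity of ADAR1. The genes were selected on their editing levels in these same libraries, as transcripts edited in the other tissues and little in brain, so the comparison of brain with the other tissues is given here as a description with no test. All 81 positions that the deposited tables list under the 3 gene names were taken, of 48715 positions in all, namely 41 of Mgat4a, 27 of Cds2 and 13 of Ppp1r15b. An editing level is the share of reads that show the edited base, and it was used only where more than 100 reads covered the position in that library. Of the 81 positions, 57 passed this limit in at least 1 library and 24 in none. A position is called edited in a tissue where at least 2 of 3 libraries of both genotypes passed the limit and the reads of a genotype together gave a level above 1%, which 30 positions did in at least 1 tissue. At the limit itself stood 2 values of Ppp1r15b, 0 edited of 107 reads in WT brain replicate 1 and 0 edited of 93 reads, which was not used, in WT small intestine replicate 3.

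Male C57BL/6 mice aged 12 weeks were compared, 3 biological replicates for each of 2 genotypes. The control, called WT here, was Adar1+/+ Ifih1-/-. The mutant, called E861A, was Adar1E861A/E861A Ifih1-/- and carries a substitution that abolishes the editing activity of ADAR1 in every cell. Both genotypes lack Ifih1, which encodes the double-stranded RNA sensor MDA5, so no group here has MDA5. Brain, heart, liver, kidney, small intestine, bone marrow (BM), thymus and spleen were assayed by mmPCR-seq, in which chosen transcript regions are amplified from cDNA in a multiplexed microfluidic PCR and sequenced deeply. PCR reads carry no molecular identifiers, so limits computed from read counts cover counting error only, and a level says nothing about how much of a transcript a tissue holds.

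Editing enzymes of the ADAR family convert adenosine to inosine, which is read as guanosine, inside double-stranded RNA. In 3′UTRs such RNA forms where a transcript carries a sequence and its inverted copy, often from repeat elements. ADAR1 is made in most tissues, whereas ADAR2, the product of Adarb1, is most abundant in brain and is intact in the E861A mice. Mgat4a encodes a glycosyltransferase that adds a branch to N-linked glycans. Cds2 encodes a CDP-diacylglycerol synthase of the endoplasmic reticulum, which makes the precursor of phosphatidylinositol. Ppp1r15b encodes CReP, the constitutive regulatory subunit that directs protein phosphatase 1 to the phosphorylated form of initiation factor eIF2.

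All 30 edited positions lay in 3′UTRs, and all 81 listed positions are an A on the transcript strand of the mm9 genome. In the mm9 annotation Mgat4a is on the minus strand of chromosome 1, with a last 3′UTR exon of 5322 bases (chr1:37496185-37501506), and its 12 edited positions lay 1497 to 2275 bases downstream of the stop codon. Cds2 is on the plus strand of chromosome 2, with 6768 bases of 3′UTR (chr2:132131019-132137786) and 9 edited positions 4341 to 4610 bases past the stop codon. Ppp1r15b is on the plus strand of chromosome 1, with 2916 bases of 3′UTR (chr1:135033462-135036377) and 9 edited positions 1092 to 1138 bases past the stop codon. A search of the genome sequence with blastn found an inverted repeat around the strongest sites of each gene. In Mgat4a, 40 bases at chr1:37499970-37500009 matched the reverse complement of chr1:37499214-37499253 at 90.0% of aligned bases, with 716 bases between the arms. In Cds2, chr2:132135362-132135431 matched the reverse complement of chr2:132135574-132135644 at 77.5% over 71 aligned bases, the closest pair of arms of the 3 genes. In Ppp1r15b the edited stretch chr1:135034550-135034614 matched the reverse complement of chr1:135034104-135034168 at 78.8% over 66 aligned bases, with 381 bases between them.

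The windows of 30 bases below hold the sites on which the results turn, read 5′ to 3′ along the transcript from the mm9 genome, and capitals mark every adenosine edited in at least 1 tissue. In Mgat4a and Cds2 the first window lies in the upstream arm of the repeat and the second in the downstream arm.
Mgat4a upstream arm, chr1:37499989-37500018, minus strand: agctttttaatAAttAgtActgcatttggc
Mgat4a downstream arm, chr1:37499223-37499252, minus strand: atagtgaAtAggAAAAgtgtcaaAtgcagt
Cds2 upstream arm, chr2:132135357-132135386, plus strand: catacAgtgcttAatAtgtgccagAcacag
Cds2 downstream arm, chr2:132135607-132135636, plus strand: taagcAtttAgcaAggtgcctggcAcatag
Ppp1r15b downstream arm, chr1:135034578-135034607, plus strand: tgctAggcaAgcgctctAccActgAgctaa

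Of the 38 positions read inside these arms 28 were edited, and of the 19 read outside them 2 were. Repeats were searched only around windows that hold the 9 sites described below, and only matches with an edited position were kept. These counts therefore follow in part from the search and are a description. Those 2 were chr1:37499904 of Mgat4a, with at most 17.0% in a library, and chr2:132135490 of Cds2, with at most 2.29%. Another position outside the arms, chr1:37499887 of Mgat4a, reached 24.2% in WT liver replicate 2 alone, in a tissue where too few E861A libraries covered it for it to be counted as edited. In the alignments of the arms, 18 of the 24 edited adenosines in the windows shown stood opposite U, 4 opposite C and 2 opposite G. All 11 of Mgat4a stood opposite U, while the strongest sites of Cds2 and Ppp1r15b stood opposite C. Described below are 9 sites, those above 20% in WT or above 5% in E861A in a tissue, and the base before them was A at 4 and U at 5. G stood before 22.8% of the 7339 positions read in the series and before 16.7% of the 30 edited positions of these genes. The 21 bases centred on each of the 9 sites occur once in the mm9 genome, apart from those of the Ppp1r15b site, which occur 198 times with A and 2 times with G at the centre. Whether reads of other copies enter the Ppp1r15b levels was not tested.

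**Figure D1:**
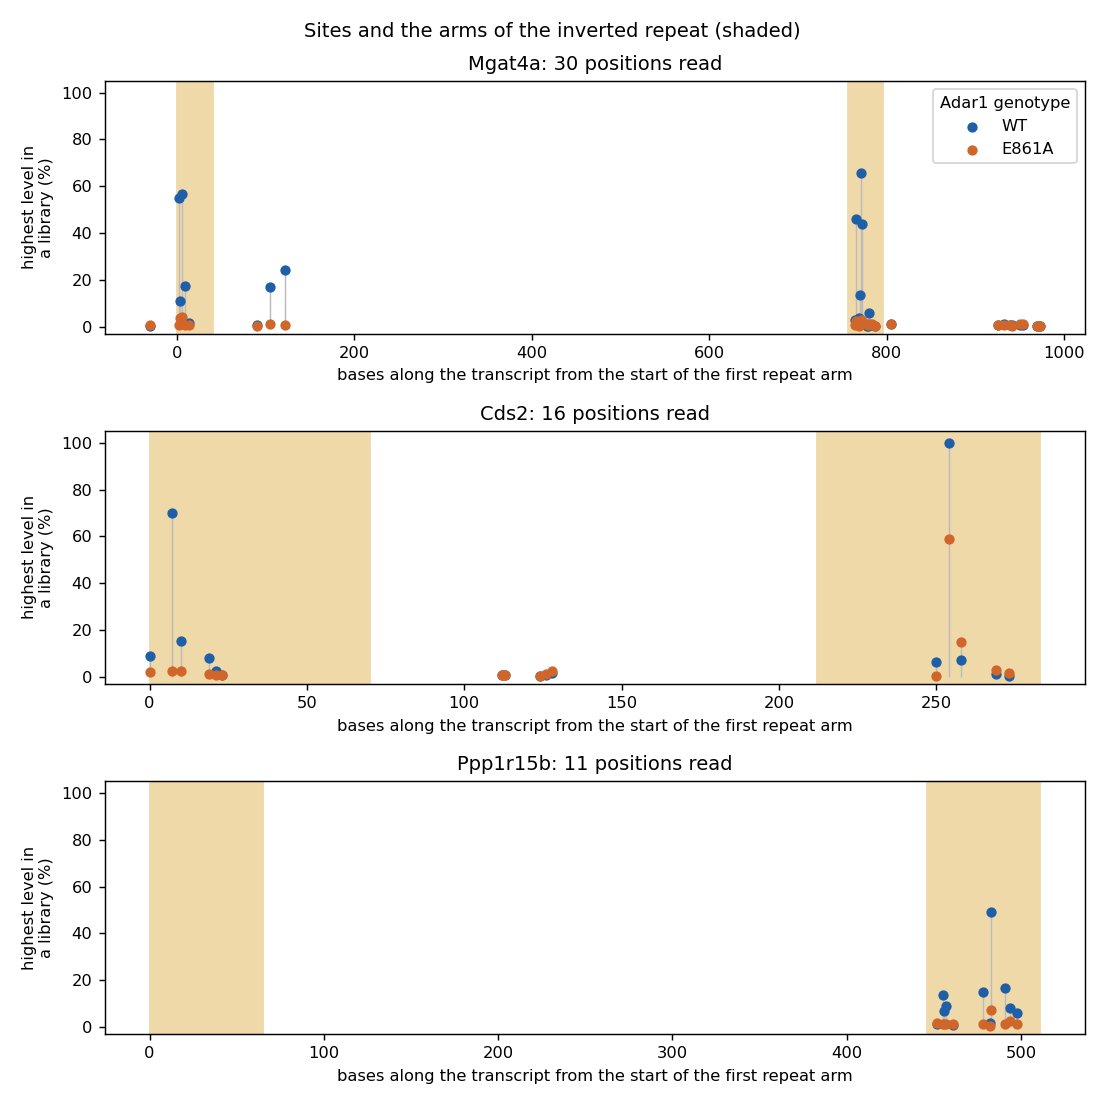
Highest editing level in any library (%, vertical axis) of each position read in Mgat4a, Cds2 and Ppp1r15b, against its distance in bases along the transcript from the start of the upstream repeat arm (horizontal axis). Blue points are WT and orange points E861A libraries, and shading marks the arms, which were searched only around strongly edited sites. Of the 30 edited positions 28 sit in shaded stretches, and the Mgat4a point at 24.2% outside them is a single WT liver library.

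The 48 libraries held 1861831 to 11394093 base reads summed over the listed positions, and 1949 to 6806 positions passed 100 reads, with WT BM replicate 2 the shallowest. The 10 neuronal transcripts used to check the brain label were all covered in brain and 3 to 7 of them in the other tissues. In 3 WT libraries the mean level over the other genes' edited sites was low. It was 1.01% in WT thymus replicate 3 against 5.09% and 10.6% in its companions, 0.933% in WT small intestine replicate 2 against 10.7% and 5.85%, and 2.11% in WT heart replicate 2 against 9.25% and 5.45%. The strongest sites of Mgat4a, Cds2 and Ppp1r15b were lowest or among the lowest of their group in the same libraries, and the part of these libraries in the results was not tested except where values without them are given. Values near 0 also stood in other WT libraries, such as 0.00% at the strongest Ppp1r15b site in heart replicate 3.

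The 3 genes did not share one pattern in brain. Of 25 positions edited in WT outside brain, 20 were covered in WT brain and 5 of those were edited there, namely 2 of Cds2 and 3 of Ppp1r15b. The 3 of Ppp1r15b rest on WT brain replicate 3, since none of them exceeded 0.794% in the other 2 WT brain libraries. Mgat4a had 12 such positions, 7 of them covered in WT brain and 0 edited there, with no WT brain library above 0.518% at any of the 7. In E861A brain the site chr1:37499243 of Mgat4a read 2.33% in replicate 2 and under that in the others, and it was not edited by the rule above. The upstream arm of Mgat4a was not covered in WT brain, where no library passed 100 reads, so nothing can be said of it there. Cds2 goes against the description as edited outside brain, since its strongest site was edited as highly in brain as in any tissue, and in both genotypes. In E861A, 4 of the 25 positions were edited in brain, 3 of Cds2 and 1 of Ppp1r15b. Of these, Cds2 chr2:132135369 rests on E861A replicate 2 alone, at 2.20% against 0.00% in the others. The Ppp1r15b position, chr1:135034587, rests on E861A replicate 3 alone, at 6.97%.

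Averaged over the 7 edited positions covered in both tissues, the WT level of Mgat4a was 0.160% ± 0.0452 (SD, n = 2) in brain and lay between 1.06% in spleen and 13.3% in liver elsewhere. The mean of the differences of the 7 other tissues from brain was 6.59 percentage points. Over 9 positions the WT mean of Cds2 was 10.3% ± 2.94 (SD, n = 2) in brain, below BM at 13.7% and liver at 13.0% and above the other 5 tissues, which went down to 0.243% in spleen. Its mean difference was -3.49 points and turned to 4.99 points without WT replicate 2 and to 4.42 points without WT replicate 3, since the downstream arm then had a single WT brain library and dropped out. Over 9 positions the WT mean of Ppp1r15b was 1.91% ± 2.92 (SD, n = 3) in brain and ranged up to 7.23% in BM, with kidney lower than brain at 1.29%. Its mean difference of 2.08 points was smaller than the spread between libraries of 3.12 points. It was 4.52 points over positions edited above 5%, 0.01 points without WT replicate 1 and 4.17 points without WT replicate 3.

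**Figure D2:**
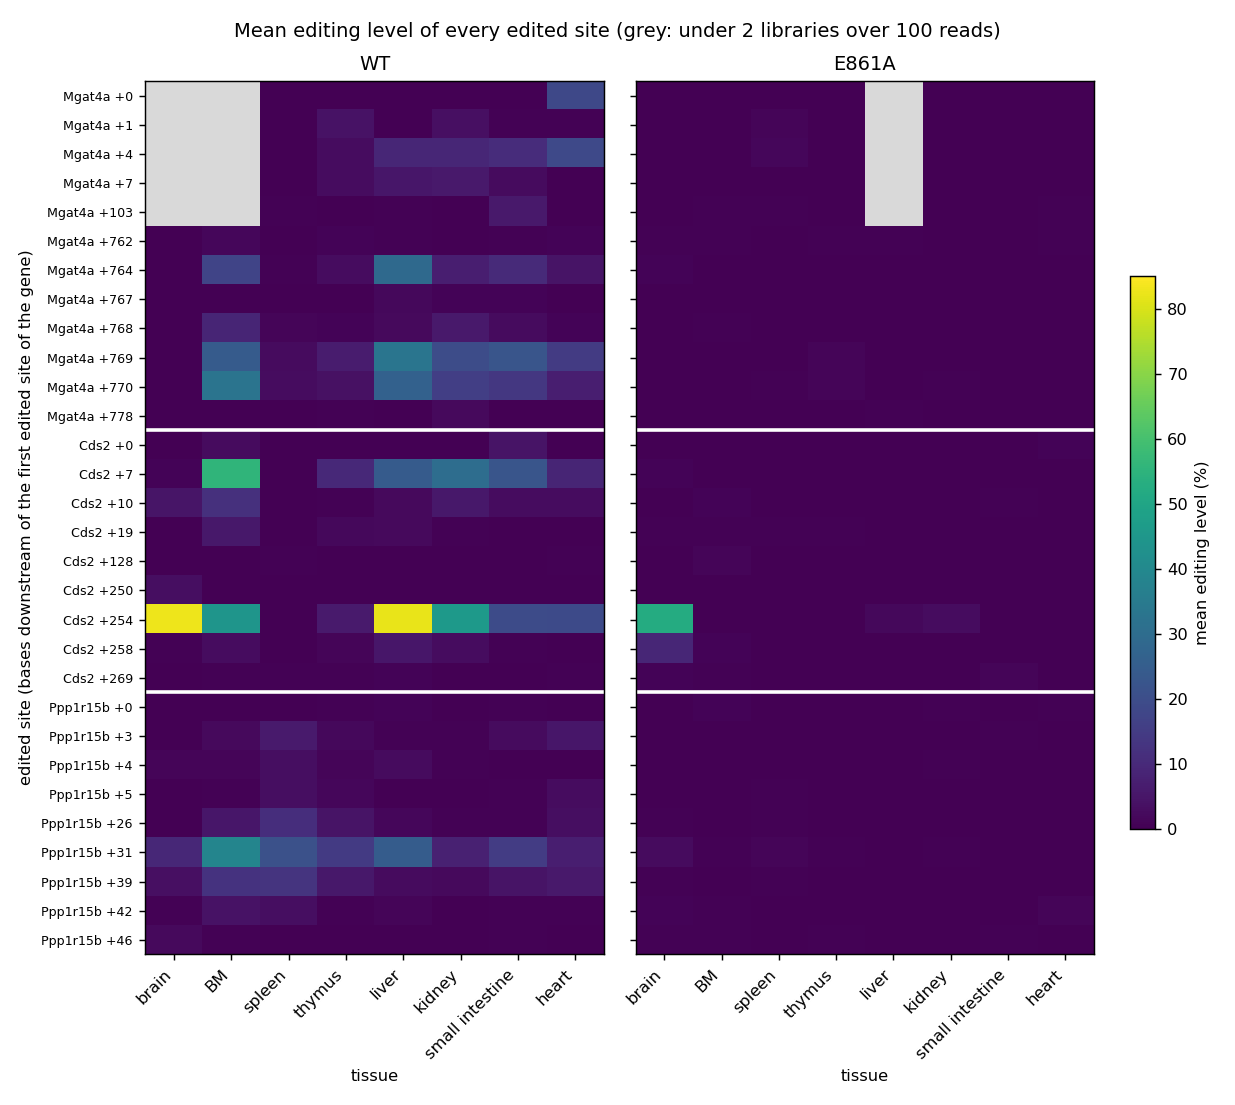
Mean editing level (%, colour scale) of all 30 edited positions (rows, labelled by bases downstream of the gene's first edited position) in 8 tissues (columns), WT on the left and E861A on the right. Grey cells had fewer than 2 libraries over 100 reads. The 7 Mgat4a rows measured in WT brain are dark there and the other 5 grey, the strongest Cds2 site is bright in brain in both panels, and the E861A panel is near 0 elsewhere apart from 9.07% at the neighbouring Cds2 site in brain.

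In Mgat4a 4 of the 7 edited adenosines of the downstream arm form the run ggAAAAg, and 2 neighbours in it had the highest WT means of the gene. The strongest site on average, chr1:37499238, read 0.0982% and 0.102% in the 2 WT brain libraries that passed the coverage limit. It read 28.1% and 20.9% in WT BM, 25.1%, 19.1% and 15.3% in WT kidney, and 7.81%, 11.6% and 0.290% in WT thymus. In WT small intestine it read 36.1%, 0.243% and 31.2%, and in WT heart 18.4%, 0.416% and 25.6%. Every WT library of BM and kidney was therefore above every brain library, while thymus, small intestine and heart each had 1 library near the level of brain, the same libraries that were low over other genes. WT liver read 65.8% and 0.225%, and WT spleen 2.17%, 5.43% and 0.134%. The lowest liver and spleen values were both of replicate 3. Over other genes liver replicate 3 averaged 7.12% beside 8.94% and 12.3%, and spleen replicate 3 averaged 3.69% beside 3.30% and 4.88%. In E861A the site stayed at or below 0.480% in every library apart from thymus replicate 1, which read 2.83%. Ordered by WT mean, liver came first at 33.0% and brain last at 0.10%. Spleen and brain were the only neighbours in that order of 8 tissues whose libraries did not overlap, by 0.134% against 0.102%.

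The adjacent Mgat4a base chr1:37499237 read 43.7% and 21.5% in WT BM, 30.7% and 22.3% in WT liver, and 22.9%, 9.72% and 14.4% in WT kidney. It read 5.80%, 5.64% and 0.346% in WT thymus and 2.31%, 5.67% and 0.202% in WT spleen. It read 28.4%, 0.488% and 12.5% in WT small intestine and 21.5%, 0.00% and 0.20% in WT heart. In brain it read at most 0.196% in WT and 0.291% in E861A, and outside brain no E861A library exceeded 0.672% apart from thymus replicate 1 at 2.47%. WT liver replicate 3 thus held 22.3% at this base and 0.225% at the next, while its companion held 30.7% and 65.8%. A further site of the arm, chr1:37499243, read 45.8% and 12.4% in WT liver, 15.8% and 19.2% in WT BM and 10.3%, 6.73% and 4.12% in WT kidney. It read 1.74%, 6.57% and 0.173% in WT thymus, 11.1%, 0.140% and 18.7% in WT small intestine and 12.9%, 0.121% and 0.199% in WT heart, and at most 0.751% in WT spleen and 0.455% in E861A outside brain. The remaining 4 edited bases of the arm did not exceed 13.3% in any library.

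In the upstream arm of Mgat4a, the site chr1:37500003 read 56.7% in WT heart replicate 1 and 0.00% in the other 2, 32.1% in WT small intestine replicate 1 and at most 0.0478% in the others, and 8.81%, 18.2% and 0.00% in WT kidney. It read 1.65%, 6.69% and 0.00% in WT thymus, 18.1% and 0.00% in WT liver and at most 0.564% in WT spleen. In E861A spleen it read 0.00%, 0.0763% and 3.97%, and chr1:37500006 read 0.00%, 0.0664% and 3.47% against at most 0.261% in WT. Both counted as edited there in E861A through replicate 3 alone, and neither passed the limma test (adjusted p = 0.576 and 0.533). The site chr1:37500007 read 55.0% in WT heart replicate 1 and at most 0.574% in every other library of either genotype. The heart means at chr1:37500003 and chr1:37500007, and the small intestine mean at the first, are thus set by 1 library of 3. Across all edited positions of Mgat4a outside brain, 6 of 242 E861A library values were above 1%, the highest being 3.97% in spleen replicate 3.

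In Cds2 the main sites of the 2 arms differed in brain level, a contrast that other sites of the arms did not all share. The main site of the upstream arm, chr2:132135369, read 0.00%, 0.0435% and 2.20% in WT brain. It read 67.4%, 69.8% and 29.5% in WT BM, 41.1%, 29.6% and 20.1% in WT kidney, and 30.0%, 21.8% and 21.3% in WT liver. All libraries of these 3 tissues were above all brain libraries. WT thymus read 16.5%, 12.5% and 0.00%, WT small intestine 44.5% and 0.0329%, and WT heart 26.9%, 0.00% and 0.00%. In WT spleen it stayed at or below 0.326% with 1229 to 1896 reads. In E861A no library exceeded 0.171% outside brain, and in BM the 3 libraries held 0 edited of 453 to 2918 reads, which allows up to 0.662% in the shallowest.

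The main site of the downstream arm, chr2:132135616, is the strongest of all 30 positions. In brain it read 100% of 944 reads and 65.7% of 5886 reads in the 2 WT libraries covered, and 49.4%, 48.1% and 58.9% in E861A. Outside brain it read 79.9%, 89.3% and 77.0% in WT liver, 32.3%, 41.3% and 63.5% in WT kidney, and 37.8%, 42.9% and 52.3% in WT BM. The E861A libraries of those tissues read at most 5.52% in liver, 7.60% in kidney and 0.535% in BM. The E861A brain libraries were thus the only E861A libraries above 7.60% at this site. WT thymus read 1.86%, 16.9% and 0.0435%, WT small intestine 57.9%, 0.0861% and 0.105%, and WT heart 16.7%, 0.0293% and 40.3%. WT spleen was again at the level of E861A, with 0.101% to 0.243% over 3944 to 6371 reads. No position of Cds2 was edited in spleen, whereas Mgat4a had 3 and Ppp1r15b 7 positions edited in WT spleen. Ordered by WT mean, brain stood at 82.9% ± 24.2 (SD, n = 2) and liver at 82.1% ± 6.44 (SD, n = 3), which overlapped, and all liver libraries were above those of kidney, next at 45.7% ± 16.1 (SD, n = 3).

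The neighbouring adenosine chr2:132135620, 4 bases downstream, had a different order in brain. It read 0.00% and 1.09% in WT brain and 14.9%, 7.88% and 4.40% in E861A brain, so the mutant was higher in all libraries. In liver the order was the opposite, with 7.09%, 1.84% and 6.21% in WT and at most 0.181% in E861A, and in kidney 4.37%, 4.10% and 0.371% in WT stood against at most 0.0894% in E861A. In BM 0.385%, 4.36% and 3.76% in WT overlapped 0.249%, 1.44% and 0.537% in E861A, and in thymus 0.504%, 2.87% and 0.453% in WT stood above at most 0.421% in E861A. The change in brain was 2.79 ± 0.97 (SE) on the log2 scale and did not pass the limma test over all brain sites (limma adjusted p = 0.629). A limma fit of all 48 libraries together called it higher in brain (adjusted p = 0.000392) and lower in liver (0.000817) and kidney (0.0166). That fit shares a variance per site over tissues whose spread differs, and it has no term for the animal. In brain, over all alternatives the adjusted p ran from 0.000392 to 0.815. Among the other Cds2 positions, chr2:132135372 in the upstream arm averaged 4.81% in WT brain, where its libraries ran from 0.00% to 13.3%, and 0.239% in E861A brain. In BM it averaged 11.7% against 0.771%.

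In Ppp1r15b editing was spread over 9 positions of a single arm, with the other arm outside the positions read. The strongest, chr1:135034587, read 49.1% and 28.5% in WT BM, 38.4%, 27.6% and 7.81% in WT liver, and 24.3%, 29.2% and 9.96% in WT spleen. It read 16.1%, 23.3% and 3.81% in WT thymus and 8.06%, 8.48% and 6.80% in WT kidney. WT small intestine read 30.1% and 0.291%, and WT heart 21.5%, 0.00% and 0.00%. In WT brain it read 0.00% of 121 reads, 0.775% of 129 reads and 27.6% of 134 reads, and in E861A brain 0.535%, 0.286% and 6.97%. The level in WT brain thus rests on 1 library, and a count of 0 in 121 reads allows up to 2.48%. Outside brain no E861A library exceeded 1.59%. The depth was the lowest of the 3 genes, with at most 687 reads at this site against 4050 and 8590 at the strongest sites of Mgat4a and Cds2. All neighbours in the order of 8 tissues by WT mean overlapped.

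The second strongest Ppp1r15b position, chr1:135034595, averaged 12.5% ± 5.56 (SD, n = 2) in WT BM and 12.9% ± 2.19 (SD, n = 3) in WT spleen, and 0.161% and 0.367% in E861A. At chr1:135034582 the mean was 11.1% ± 3.42 (SD, n = 3) in WT spleen and 5.03% ± 1.00 (SD, n = 2) in WT BM, with 0.565% and 0.104% in E861A. These positions thus had their highest WT means in spleen, where Cds2 was at the level of the mutant.

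**Figure D3:**
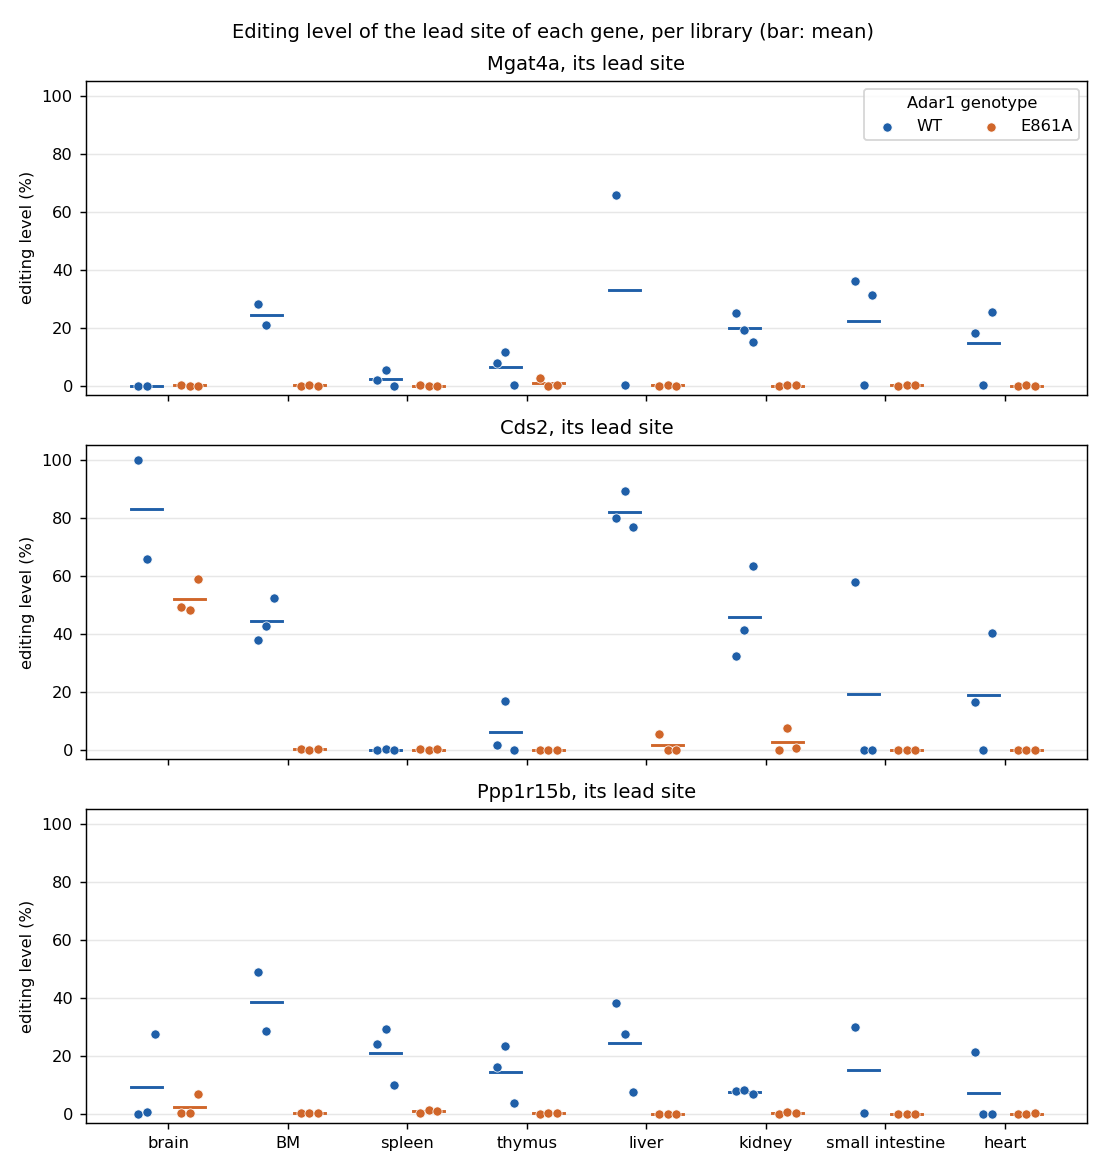
Editing level (%, vertical axis) of the strongest site of each gene in every library over 100 reads, by tissue (horizontal axis), WT in blue and E861A in orange, with bars at the means. Outside brain no E861A point exceeds 7.60%, the Cds2 site stands at 48.1% to 58.9% in E861A brain, and the WT points of thymus, small intestine and heart are widely spread.

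The dependence on ADAR1 activity was tested tissue by tissue with limma on the log2 ratio of edited to unedited shares (0.01 added to each), over all edited sites of the tissue, with Benjamini-Hochberg adjustment over those sites and a threshold of 0.05. A position edited in WT alone entered through its WT level, so the counts describe these genes and are set beside the share of all sites called. In BM, 10 of 19 member positions fell in E861A, beside 27% of the 538 sites tested. In kidney 8 of 14 fell beside 17.1% of 532, in liver 5 of 15 beside 9.75% of 677, and in spleen 3 of 12 beside 8.45% of 284. The liver count was 0 on untransformed levels and with a replicate block. The spleen count was 0 on untransformed levels, at over 500 reads and with no edited limit. By limma fitted per tissue none rose, while the fit of all 48 libraries called 2 Cds2 positions higher, chr2:132135620 in brain and chr2:132135490 in BM. In BM all Mgat4a and Ppp1r15b positions had 2 WT libraries and left the fit without WT replicate 1 or 3. The counts of 3 and 4 in those fits are of Cds2 alone. The count rose to 9 of 13 in spleen without WT replicate 3 (beside 26.7% of all sites in that fit). In liver it fell to 2 or 3 without any 1 library other than WT replicate 1. The Mgat4a positions, with 2 WT libraries in liver, left the fit without WT replicate 2 or 3. The share of all sites called was not computed for these BM and liver fits. The genes were selected for editing outside brain in these same libraries, so a fall in those tissues follows in part from the selection and the medians are a description. The strongest sites were also picked by their WT levels, so the changes and limma p-values given for them below are a description too. The median change of the members was -2.52 in BM against -1.30 over all sites, -2.51 against -1.26 in kidney, -1.35 against -1.02 in liver and -1.49 against -0.90 in spleen, on the log2 scale.

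In brain, thymus, small intestine and heart limma fitted per tissue called 0 of 9, 16, 15 and 13 member positions, beside 0% of all 808, 529, 413 and 446 sites (0% in each of the 4 tissues). The fit of all 48 libraries called 1, 3, 2 and 0 lower in them. At an unadjusted p under 0.05 the limma fits per tissue gave 0, 2, 0 and 0 lower positions, and 1 higher position in brain. A quasi-binomial model of the reads called 0 in all 8 tissues. The share of all sites called was not computed for the unadjusted p, this model or the fit of all 48 libraries. Without WT replicate 3, the library of thymus that was low over other genes, 12 of 17 positions fell in thymus, beside 39.8% of the 560 sites tested in that fit. The E861A libraries lay wholly below the WT libraries at 1 of 9 positions in brain (11.6% of all sites), 12 of 19 in BM (42.4%), 5 of 12 in spleen (26.4%), 6 of 16 in thymus (27.4%), 9 of 15 in liver (31.9%), 10 of 14 in kidney (41.9%), 2 of 15 in small intestine (13.1%) and 2 of 13 in heart (10.8%). The shares in brain and small intestine were near those of all sites.

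In Cds2, 3 of 7 positions fell in BM, 3 of 4 in kidney and 2 of 5 in liver. Its downstream site changed by -7.80 ± 0.99 (SE) in liver (limma adjusted p = 0.00908), -5.99 ± 0.41 in BM (0.000424) and -5.01 ± 0.90 in kidney (0.00879). The liver call was lost in 4 of 19 alternatives (adjusted p from 0.0001003 to 0.268 over them) and the kidney call in 2 of 19 (0.00417 to 0.377). In brain the same site was lower in all E861A libraries, with a change of -3.67 ± 1.71 that did not pass the test (limma adjusted p = 0.701). Its upstream site changed by -6.99 ± 0.69 in BM (limma adjusted p = 0.00124), -5.44 ± 0.54 in kidney (0.00172) and -5.01 ± 0.62 in liver (0.00908), and by -0.02 ± 0.74 in brain (0.996). With 0 edited reads in E861A BM and kidney, the size of those changes depends on the 0.01 added to each share. The liver call of the upstream site was lost in 3 of 19 alternatives (adjusted p from 0.000961 to 0.521). Whether the change at either site differed between brain and another tissue was not tested, because the genes were selected on that contrast.

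Mgat4a fell at 4 of 5 positions in BM, 4 of 8 in kidney and 2 of 5 in liver. Its strongest site, picked by its WT levels, changed by -4.77 ± 0.48 in BM (limma adjusted p = 0.00157) and -4.43 ± 0.49 in kidney (0.00172). In liver the change of -3.63 ± 2.11 did not pass (0.388), and 1 of its 2 WT libraries was at the level of the mutant. The adjacent base changed there by -4.83 ± 0.77 (limma adjusted p = 0.0220), a call lost without E861A replicate 1 or 3 and in 7 of 16 alternatives in all, over which the adjusted p ran from 0.000862 to 0.397. In spleen no position of Mgat4a passed, and the strongest site changed by -1.40 ± 0.76 (limma adjusted p = 0.295).

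Ppp1r15b gave all 3 of the positions called in spleen. Its strongest site changed by -3.69 ± 0.60 there (limma adjusted p = 0.000470), -5.56 ± 0.55 in BM (0.00157), -4.75 ± 0.88 in liver (0.0256) and -2.83 ± 0.50 in kidney (0.00837). The liver call was lost in 9 of 18 alternatives, among them without WT replicate 2 or any 1 E861A library, and the adjusted p ran from 0.00234 to 0.690. The spleen and kidney calls were each lost in 3 of 18 (adjusted p up to 0.3993 and 0.2955), and the BM call in 2 of 15 (up to 0.2008). In brain its change was -0.68 ± 1.61 (limma adjusted p = 0.862) and was 0.94 without WT replicate 3. The other positions called in spleen were chr1:135034595, with a change of -3.62 ± 0.65 (limma adjusted p = 0.000998), and chr1:135034582, with -3.13 ± 0.66 (0.00308).

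**Figure D4:**
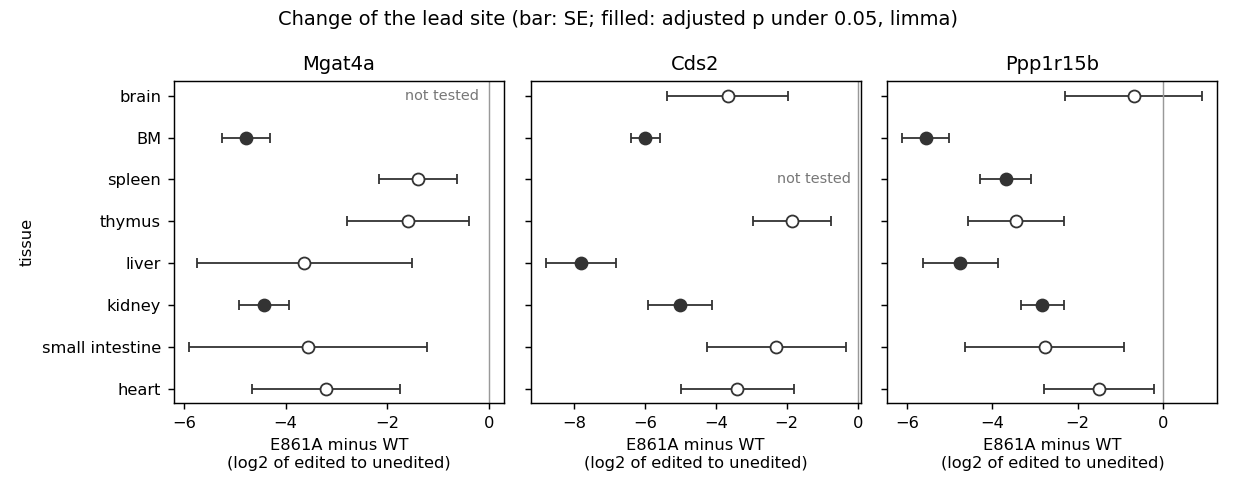
Change of the strongest site of each gene in E861A against WT (horizontal axis, difference on the log2 scale of edited to unedited shares) by tissue, with bars of 1 SE and filled points where the limma adjusted p was under 0.05. Filled points stand in BM and kidney for all 3 genes, and the point of Cds2 in liver at -7.80 is the farthest from 0. The sites were picked by their WT levels in these libraries.

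Over the libraries where both sites passed 100 reads, the levels of the 3 strongest sites rose and fell together only in part. Pearson's r was 0.61 between Mgat4a and Ppp1r15b (44 libraries), 0.48 between Mgat4a and Cds2 (45) and 0.45 between Ppp1r15b and Cds2 (45), with tissue, genotype and library shared by the points and no p given. The genes with the most similar sites, over at least 40 libraries, were Mad2l1 for Mgat4a (r = 0.89 over 40) and for Ppp1r15b (r = 0.90 over 41), and Trove2 for Cds2 (r = 0.88 over 42). Mad2l1 encodes a protein of the spindle checkpoint and Trove2 the Ro60 RNA-binding protein. Lists of other genes of N-glycan branching, of CDP-diacylglycerol and phosphoinositide synthesis and of the integrated stress response, 11 genes each, had 7, 5 and 5 members in the tables and 0 covered in any tissue, so the rest of these pathways cannot be described from this assay.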

How the data were processed

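The data are 48 mmPCR-seq libraries. For each position the deposited tables give total and edited read counts and their fraction, which the authors made with STAR and SAMtools on mm9 (versions not given in the sources used here). Levels were recomputed as edited reads over coverage where coverage was over 100. A replicate at or below that was a missing value. Samples were grouped by the labels, and limma 3.58.1 in R 4.3.3 was fitted per tissue on its 6 libraries (lmFit, eBayes with a trend) to every site with over 100 reads in 2 of 3 replicates of both genotypes and a level above 0.01 in either, after a test on simulated data. Sites were written out where the WT level exceeded 20% or the E861A level 5% in a tissue. The strongest site of a gene had the highest mean of its WT tissue levels. Repeats were searched with blastn 2.17.0 in the mm9 genome around the windows that hold written-out sites, and matches with an edited position were kept. Alternatives covered coverage, the edited limit, the offset, the scale, the model, the libraries fitted, a replicate block and leaving out each replicate. Tables that combine samples were not used here. The members and gene lists were chosen with earlier results of these data known.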

Additional observations from a re-analysis of the deposited data

Results flagged for a closer look

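Cds2 chr2:132135620 differed between genotypes in opposite directions in brain and 3 other tissues, and passed the limma test fitted per tissue in none of them (adjusted p = 0.629 in brain, 0.394 in thymus, 0.107 in liver and 0.134 in kidney). The fit of all 48 libraries, with a variance shared over tissues, called it higher in brain (limma adjusted p = 0.000392) and lower in liver (0.000817) and kidney (0.0166). Over the alternatives the adjusted p ran from 0.000392 to 0.815 in brain, 0.000817 to 0.530 in liver and 0.0022 to 0.610 in kidney. In brain the mean level was 8.53 percentage points higher in E861A than in WT, and every E861A library was above every WT library. In thymus, liver and kidney it was lower in every E861A library, by means of -1.005, -4.90 and -2.87 points. The difference between the tissues was not tested, and the WT brain level rests on 2 libraries.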

How the results depend on the processing

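The 4 tissues with calls lost them under a quasi-binomial model of the reads, which called 0 in BM, spleen, liver and kidney (main counts 10, 3, 5 and 8). On untransformed levels the counts were 1, 0, 0 and 3. With no edited limit they were 0 in spleen, 1 in liver and 5 in kidney. Coverage over 500 reads gave 6 in BM and 0 in spleen, and an offset of 0.05 gave 2 in liver. Requiring all 3 replicates gave 3 in BM and 3 in liver, where positions with 2 WT libraries were then not tested. With all 48 libraries in one fit, which shares a variance over tissues, the counts were 1 in brain (Cds2 chr2:132135612), 6 in spleen, 3 in thymus, 8 in liver and 2 in small intestine. It called 2 Cds2 positions higher, chr2:132135620 in brain (limma adjusted p = 0.000392) and chr2:132135490 in BM (0.0155). Over the alternatives the adjusted p of the first ran from 0.000392 to 0.815. Separately, the study's criterion gave 1 in thymus. Leaving out one replicate gave 3 to 9 in BM, 2 to 9 in spleen, 0 to 12 in thymus, 2 to 5 in liver and 6 to 12 in kidney, and 0 in brain, small intestine and heart. The BM counts of 3 and 4 without WT replicate 1 and 3 cover Cds2 alone. The thymus count of 12 and the spleen count of 9 arose without WT replicate 3. The cause was not tested. The share of all sites called was computed for the main fits, and for thymus and spleen without WT replicate 3. For the other alternatives a change in these counts cannot be told from a change over all sites.

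The replicate numbers were not taken as pairs: same-numbered deviations of the genotypes within a tissue correlated at -0.119 to 0.238, and in 0 tissues was every pair over 0.1. Low correlations do not exclude a shared batch. Whether a number marks the same mouse across tissues was not tested. With the replicate block the liver count was 0, and the counts in BM, spleen and kidney were 8, 3 and 6.

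With the edited limit at 0.05 the difference of the other tissues from brain was 11.2 points for Mgat4a, -5.52 points for Cds2 and 4.52 points for Ppp1r15b in WT, and -10.1 points for Cds2 in E861A. Leaving out one replicate moved it from -6.44 to 4.99 points for Cds2 in WT, -7.57 to -6.67 points for Cds2 in E861A and -0.16 to 0.0326 points for Mgat4a in E861A. No value could be had for Ppp1r15b at over 500 reads, or for Mgat4a in WT without WT replicate 2 or 3. In brain, the change at Ppp1r15b chr1:135034587 ranged from -1.71 to 0.94 over the replicates left out, the latter without WT replicate 3. The change at Cds2 chr2:132135369 in brain was 0.27 under the quasi-binomial model, and -0.32 to 0.54 over the replicates left out, with 0.54 without WT replicate 3 and 0.26 without E861A replicate 1 or 3. Of the changes at single written-out sites under the alternatives, 57 lost the call, 20 gained one and 5 reversed, and the rest kept their direction and side of the threshold. In WT brain the Mgat4a upstream arm had no library over 100 reads, and the strongest Ppp1r15b site had 121 to 134.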
